A study of Mus musculus with 6 samples.

Results

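The 36 genes described here belong to the heat shock response and the cytosolic chaperone machinery. They include the transcription factors Hsf1 and Hsf2 and 17 stress-inducible genes, which encode chaperones and co-chaperones except for the polyubiquitin gene Ubb. The others are 8 constitutive cytosolic chaperone genes, 7 subunits of the TRiC ring and 2 relatives that work in the endoplasmic reticulum. All 36 genes were chosen by symbol and were found among the 24016 genes of the expression table. The study measured messenger RNA in mouse bone marrow-derived macrophages, which are primary cells grown from marrow with the growth factor M-CSF. The comparison described here asks whether these genes differed between cells given hydroxyestrogens and cells given controls.

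The marrow came from female C57BL/6N mice aged 8 weeks and was grown with 20 ng/mL M-CSF in medium without phenol red, with charcoal-stripped serum. Cells were plated on day 7, given a compound or the ethanol vehicle for 1 h, and then stimulated with bacterial lipopolysaccharide (LPS) at 100 ng/mL for 6 h. The hydroxyestrogen group held 3 libraries, from cells given 2OHE2 (2-hydroxyestradiol, replicate 1), 4OHE1 (4-hydroxyestrone, replicate 2) or 2OHE1 (2-hydroxyestrone, replicate 3). The control group held 3 libraries, from cells given ethanol (EtOH, replicate 1), E2 (estradiol, replicate 2) or a compound labelled 16Epi (replicate 3). Each compound therefore had 1 library, and the replicates of a group were different compounds. The unit of the dose is garbled in the labels, and 1 mM stocks diluted 1 to 1000 give 1 µM. All 6 libraries, controls included, received LPS, so no level without LPS was analysed here. The labels name no separate animals or cultures behind the libraries, so a p-value measures only the spread between these libraries.

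Heat shock factor 1 (HSF1) is held inactive by chaperones in unstressed cells, and is released when heat or reactive chemicals damage proteins. It then binds repeats of the letters GAA and TTC in promoters, called heat shock elements, and switches on inducible chaperones such as the Hspa1a and Hspa1b members of the HSP70 family. The constitutive chaperones fold newly made proteins at all times, and TRiC is a closed ring that folds actin and tubulin.

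To show where these letters lie, promoters of 28 of the 36 members were read from RefSeq (build GRCm38.p6), as windows from 250 bases before to 50 after the gene's start. Both strands were covered by searching for the 2-unit motifs TTCNNGAA and GAANNTTC, and for 3-unit motifs, which extend them by a further GAA or TTC at the same spacing and so contain the shorter ones. A 2-unit motif was present in 15 of the 37 promoters of members (40.5%) and in 15.1% of all 32851 promoters in the table. A 3-unit motif was present in 5 of the 37 (13.5%), against 0.603% of all promoters, and those 5 belonged to Chordc1, Hsph1 and Dnajb6. No promoter was at hand for Ppid, Hsp90aa1, Hspa8, St13, Hspa13, Hsf1, Hsp90ab1 and Cct4. The promoters below are 1 for each of those 3 genes, that of the inducible HSP70 gene Hspa1a, and both of Ubb, the gene with the clearest difference in expression. They run 5′ to 3′ on the gene's strand, and capitals mark the matched motifs.
Chordc1 (chr9:18292017-18292316, + strand): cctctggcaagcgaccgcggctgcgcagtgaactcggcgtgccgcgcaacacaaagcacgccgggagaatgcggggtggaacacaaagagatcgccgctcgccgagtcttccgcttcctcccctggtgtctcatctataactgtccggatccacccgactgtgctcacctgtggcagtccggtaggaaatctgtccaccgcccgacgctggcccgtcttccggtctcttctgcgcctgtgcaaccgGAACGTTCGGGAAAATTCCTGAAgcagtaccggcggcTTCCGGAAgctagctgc
Hsph1 (chr5:149636287-149636586, - strand): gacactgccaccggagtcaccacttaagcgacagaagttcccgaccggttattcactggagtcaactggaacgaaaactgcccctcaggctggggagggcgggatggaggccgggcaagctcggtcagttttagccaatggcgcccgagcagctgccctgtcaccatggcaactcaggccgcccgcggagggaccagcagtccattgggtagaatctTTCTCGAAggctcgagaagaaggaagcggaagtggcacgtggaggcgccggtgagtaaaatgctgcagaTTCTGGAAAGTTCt
Dnajb6 (chr5:29735648-29735947, + strand): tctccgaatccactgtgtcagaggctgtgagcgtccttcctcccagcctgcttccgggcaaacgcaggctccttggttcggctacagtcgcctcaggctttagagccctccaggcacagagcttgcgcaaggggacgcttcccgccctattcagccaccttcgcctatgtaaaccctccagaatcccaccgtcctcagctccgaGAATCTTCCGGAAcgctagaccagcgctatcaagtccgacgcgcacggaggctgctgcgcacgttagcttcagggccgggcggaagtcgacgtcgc
Hspa1a (chr17:34972107-34972406, - strand): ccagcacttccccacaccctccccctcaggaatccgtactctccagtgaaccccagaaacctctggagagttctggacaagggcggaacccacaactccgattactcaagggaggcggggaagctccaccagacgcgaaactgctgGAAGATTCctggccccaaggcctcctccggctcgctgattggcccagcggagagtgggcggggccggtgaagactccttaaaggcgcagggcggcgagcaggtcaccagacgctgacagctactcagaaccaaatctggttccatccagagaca
Ubb first promoter (chr11:62550921-62551220, + strand): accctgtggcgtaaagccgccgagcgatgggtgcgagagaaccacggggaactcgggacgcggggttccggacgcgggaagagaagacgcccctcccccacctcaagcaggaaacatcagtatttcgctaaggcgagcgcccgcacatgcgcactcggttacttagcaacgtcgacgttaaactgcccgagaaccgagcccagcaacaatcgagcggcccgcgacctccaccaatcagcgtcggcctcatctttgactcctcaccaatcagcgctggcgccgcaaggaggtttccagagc
Ubb second promoter (chr11:62551481-62551780, + strand): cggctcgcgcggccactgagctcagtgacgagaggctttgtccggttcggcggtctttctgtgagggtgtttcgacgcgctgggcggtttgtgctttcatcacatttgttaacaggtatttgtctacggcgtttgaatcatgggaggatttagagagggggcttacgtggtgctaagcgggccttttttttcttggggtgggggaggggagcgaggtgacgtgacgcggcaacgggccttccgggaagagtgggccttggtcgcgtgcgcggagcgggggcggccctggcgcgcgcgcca
The matches in Chordc1 began between positions -4 and 33, counting the gene's first base as 0, and included 3 overlapping 3-unit motifs, while Hspa1a held a single 2-unit motif at -104. The near-identical Hspa1b promoter held its match at the same position. Neither Ubb promoter held a match in these 300 bases, which says only that these letters are not in these windows.

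Library totals ran from 14734225 to 17326353 reads in genes. The deposited levels are RPKM, reads scaled for exon length and for the library's total, and differences are given on the scale of log2(RPKM + 0.1), hydroxyestrogens minus controls. All 8 measured macrophage markers were detected in each group, with summed levels of 7181 to 8434 RPKM in hydroxyestrogens and 8013 to 8429 in controls. Lyz2 and Cd14 made up most of these sums. Fcgr1, Itgam and Emr1 were lower in every hydroxyestrogen library than in every control, and Csf1r and Cd68 were higher. None passed the test described below (limma, lowest adjusted p = 0.0585, for Fcgr1). Of all tested genes, 20.0% likewise had no overlap between the groups. All 4 erythroid markers were at 0, and the summed T cell and B cell markers reached at most 0.108 and 0.113 RPKM. The summed level of 5 neutrophil markers was 0.632 to 3.92 RPKM in hydroxyestrogens and 2.23 to 4.03 in controls. That of 3 dendritic cell markers was 1.95 to 2.63 and 2.21 to 2.96. For 4 fibroblast markers it was 9.15 to 15.4 and 13.0 to 14.6. The ranges of all these sums overlapped between the groups. The hydroxyestrogen libraries scattered more. The squared deviation of a library from the mean of the others of its group was divided by the average expected from counting alone. The median of this ratio was 4.14 to 4.92 in hydroxyestrogens and 2.40 to 2.60 in controls. On the first principal component, which held 30.6% of the variance, 4OHE1 stood apart at 50.5 while the other libraries lay between -19.4 and -1.51.

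Of the 35 members with enough reads to test, 1 passed the test between groups: Ubb, a polyubiquitin gene that heat shock induces, was higher in hydroxyestrogens. The test was limma's moderated test, fitted on 11991 genes, with p-values adjusted by Benjamini-Hochberg and called under 0.05, and 1.88% of all tested genes passed it (1.28% higher and 0.600% lower). No member passed as lower. At an unadjusted p under 0.05 there were 6 of 35 members, or 17.1%, beside 13.5% of all tested genes. In 8 of the 35 the groups did not overlap, which is 22.9% of members and 20.0% of all tested genes. Of these, 4 were higher in every hydroxyestrogen library (Ubb, Hspa8, Dnajb4 and Ahsa1), as were 9.15% of all tested genes, and 4 were lower (Hspa4, Tcp1, Cct2 and Cct3), as were 10.8%. The share of members with non-overlapping groups was thus near the background. The remaining member, the small heat shock protein gene Hspb8, had 0, 12 and 0 reads in 2OHE2, 4OHE1 and 2OHE1 and 0, 6 and 4 in EtOH, E2 and 16Epi, too few to test.

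Ubb lies at chr11:62365006-62366714 (mm9, + strand) and encodes head-to-tail ubiquitin units. Its level was 238.4 RPKM in 2OHE2, 275.5 in 4OHE1 and 269.4 in 2OHE1, against 195.2 in EtOH, 171.2 in E2 and 163.1 in 16Epi. Every hydroxyestrogen library was above every control, with means of 261 ± 19.9 and 176 ± 16.7 RPKM (SD, 3 libraries in each group). In such bulk samples, a change in the share of a cell type and a change in RNA per cell cannot be told apart. The log2 difference was 0.57 ± 0.09 (SE), with a 95% interval of 0.37 to 0.76, or 1.29-fold to 1.69-fold (limma, adjusted p = 0.0118). Without 4OHE1 it was 0.53 and still passed (limma, adjusted p = 0.0369). The call was lost without the E2 library (limma, adjusted p = 0.0651) or without the 16Epi library (limma, adjusted p = 0.0707), while the difference in all of these fits stayed between 0.51 and 0.64. Across the 15 alternative settings the adjusted p ran from 0.000175 to 0.163, and Ubb passed in 11. In the authors' deposited table the difference was 0.58 with an adjusted p of 3.75e-07. Of the windows of 50 bases in Ubb transcripts, 48.1% also occur in another gene, mostly Gm1821, which was listed at 0.983 to 5.48 RPKM.

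**Figure D1:**
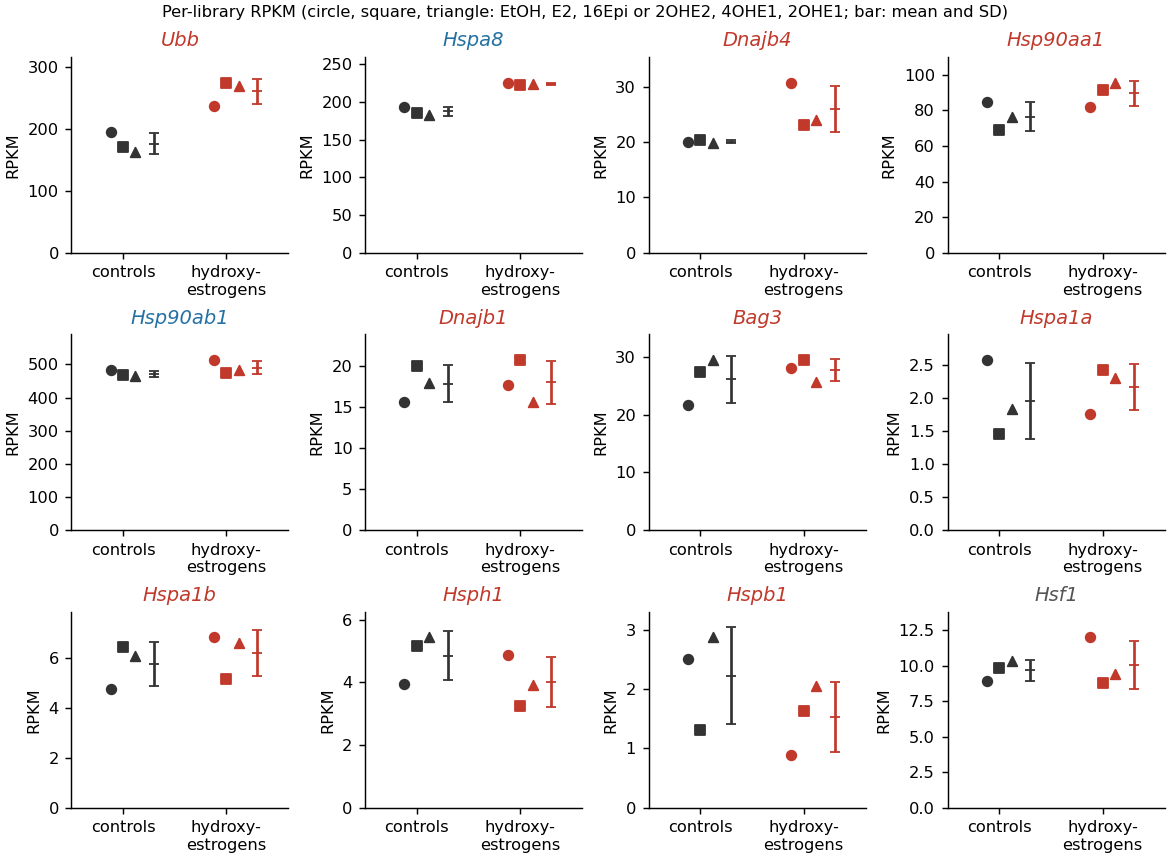
Level of 12 members in each library (y axis, RPKM, starting at 0), controls in grey and hydroxyestrogens in red, with bars for the mean and SD of the 3 libraries of a group; circles, squares and triangles stand for EtOH, E2 and 16Epi or for 2OHE2, 4OHE1 and 2OHE1, and title colours give the class (red inducible, blue constitutive, grey factor). The groups are apart for Ubb, Hspa8 and Dnajb4 and overlap for the other 9.

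The transcription factors themselves differed by less than the spread between libraries. Hsf1 was at 12.004 RPKM in 2OHE2, 8.766 in 4OHE1 and 9.423 in 2OHE1, against 8.902 in EtOH, 9.831 in E2 and 10.363 in 16Epi. The groups overlapped, 2OHE2 was the highest library and 4OHE1 the lowest, and the log2 difference was 0.04 ± 0.15 (SE; limma, adjusted p = 0.940). Hsf2, the paralogue that can form mixed trimers with HSF1, was at 9.73, 10.98 and 9.06 RPKM in 2OHE2, 4OHE1 and 2OHE1 and at 7.76, 7.33 and 10.24 in EtOH, E2 and 16Epi. The 16Epi library lay inside the range of the hydroxyestrogens, and the difference was 0.24 ± 0.16 (SE; limma, adjusted p = 0.570), or 0.17 without 4OHE1 and 0.39 without 16Epi.

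Among the 17 inducible genes, the classic markers of HSF1 activity stayed within the spread between libraries. The inducible HSP70 genes lie side by side on chromosome 17, Hspa1a at chr17:35106304-35109101 and Hspa1b at chr17:35093374-35096183 (mm9, - strand), and share 60.3% and 62.3% of their 50-base windows with another gene, mostly each other, so the split of reads between them is uncertain. Summed, they stood at 8.58 RPKM in 2OHE2, 7.57 in 4OHE1 and 8.90 in 2OHE1, and at 7.33 in EtOH, 7.88 in E2 and 7.90 in 16Epi. The 4OHE1 library lay among the controls, and the log2 difference of the sum was 0.11 with a 95% interval of -0.19 to 0.42 (limma, adjusted p = 0.778). Hspa1a alone differed by 0.17 (interval -0.46 to 0.79) and Hspa1b by 0.10 (interval -0.31 to 0.52). The RPKM of the constitutive HSP70 gene Hspa8 was 23.2 to 29.4 times that of the 2 inducible genes together in the 6 libraries. Of Hspa8 windows, 67.3% also occur in another gene. How reads in shared windows were counted was not examined, so the summed level and this ratio may be affected too.

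Dnajb1, the HSP40 partner that brings clients to HSP70, was at 17.7 RPKM in 2OHE2, 20.8 in 4OHE1 and 15.7 in 2OHE1, against 15.6 in EtOH, 20.1 in E2 and 18.0 in 16Epi. Its ranges were almost the same in both groups, with a log2 difference of 0.01 (95% interval -0.30 to 0.32; limma, adjusted p = 0.987). Bag3, which releases substrates from HSP70 and directs them to autophagy, was at 28.2, 29.4 and 25.6 RPKM in 2OHE2, 4OHE1 and 2OHE1 and at 21.6, 27.4 and 29.5 in EtOH, E2 and 16Epi. Only the EtOH library was below all the hydroxyestrogens, and the difference was 0.09 (interval -0.19 to 0.38; limma, adjusted p = 0.807). Hsph1, the inducible HSP110 protein that exchanges nucleotide on HSP70 and whose promoter holds a 3-unit element, was at 4.86, 3.25 and 3.91 RPKM against 3.95, 5.16 and 5.43, in the same orders. The mean was lower in hydroxyestrogens, but 2OHE2 lay above EtOH and the difference was -0.27 (interval -0.75 to 0.21; limma, adjusted p = 0.630). Without 4OHE1, its lowest library, that difference was -0.14.

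Hspb1, a small heat shock protein, was the least precisely measured of the tested members, with 15 to 43 reads per library. It stood at 0.885 RPKM in 2OHE2, 1.64 in 4OHE1 and 2.05 in 2OHE1, against 2.51 in EtOH, 1.31 in E2 and 2.87 in 16Epi. The groups overlapped, and the difference of -0.52 had an interval of -1.38 to 0.34 (limma, adjusted p = 0.610). It ran from -0.85 to -0.20 when 1 library was left out. It shares 48.8% of its windows with another gene, Hsp25-ps1. Chordc1, a co-chaperone of HSP90 whose promoter carries the densest run of elements shown above, differed by 0.04 (interval -0.20 to 0.29).

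Hsp90aa1, the inducible HSP90 gene, was at 81.7 RPKM in 2OHE2, 91.6 in 4OHE1 and 95.7 in 2OHE1, against 84.8 in EtOH, 68.8 in E2 and 76.2 in 16Epi. The 2OHE2 library fell below EtOH, so the groups overlapped. The log2 difference was 0.23 (interval 0.02 to 0.44; limma, adjusted p = 0.338), and 50.1% of its windows occur in another gene, mostly Gm12346. Hsp90ab1, the constitutive HSP90 gene and the most abundant member per length, was at 514, 474 and 484 RPKM against 483, 467 and 465, in the orders given above. Its difference was 0.06 (interval -0.08 to 0.19; limma, adjusted p = 0.747). The ratio of Hsp90aa1 to Hsp90ab1 was 0.159 in 2OHE2, 0.193 in 4OHE1 and 0.198 in 2OHE1, and 0.175 in EtOH, 0.147 in E2 and 0.164 in 16Epi, with overlap between the groups. Ahsa1, which activates the ATPase of HSP90, was at 51.0, 55.8 and 50.5 RPKM against 45.7, 49.0 and 42.8, and its difference of 0.19 did not pass (limma, adjusted p = 0.351).

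Dnajb4, another HSP40 protein, lies at chr3:151846835-151856809 (mm9, - strand). Its level was 30.7 RPKM in 2OHE2, 23.1 in 4OHE1 and 24.0 in 2OHE1, against 20.0 in EtOH, 20.3 in E2 and 19.8 in 16Epi. The controls sat within a narrow band with every hydroxyestrogen library above it and 2OHE2 the highest. The log2 difference was 0.36 (interval 0.09 to 0.63) and did not pass (limma, adjusted p = 0.222), and without 2OHE2 it was 0.23. The authors' deposited table gives 0.39 with an adjusted p of 0.0336. The rest of the inducible class, namely Dnaja1, Stip1, Fkbp4, Cacybp and Hspa4l, had differences from -0.0025 for Stip1, which links HSP70 to HSP90, to 0.19 for Hspa4l, an HSP110 relative. Leaving out 1 library moved Hspa4l between 0.05 (without 2OHE1) and 0.38 (without 4OHE1). As a class the 16 tested inducible genes had a median difference of 0.10, with 13 positive. The median over all tested genes was -0.02, with 45.7% positive. Of the 16, 4 had an unadjusted p under 0.05 (limma), namely Ubb, Hsp90aa1, Dnajb4 and Ahsa1. That is 25% of the class, beside 13.5% of all tested genes. The class median was 0.07 without 4OHE1 and 0.04 with the authors' log2 values.

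Hspa8 encodes HSC70, the constitutive HSP70 of the cytosol, and lies at chr9:40609356-40613282 (mm9, + strand). Its level was 225.6 RPKM in 2OHE2, 222.8 in 4OHE1 and 224.2 in 2OHE1, against 193.9 in EtOH, 185.0 in E2 and 183.2 in 16Epi. The 3 hydroxyestrogen libraries were nearly equal and all above the controls. The log2 difference was 0.26 ± 0.06 (SE), with an interval of 0.13 to 0.39, and did not pass (limma, adjusted p = 0.0647). It passed in 3 of 15 alternative settings, with an adjusted p from 0.0315 to 0.339 over the 15, and the authors' deposited table gives 0.28 with an adjusted p of 0.00106. Of its windows, 67.3% occur in another gene, mostly Gm15459. The authors' deposited table passed 3 of the 36 members, Ubb, Hspa8 and Dnajb4, all higher, beside 4.92% of the genes tested here, or 2.83% counted as higher.

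Other constitutive genes had lower means in hydroxyestrogens or differences near 0. Hspa4, an HSP110-family exchange factor, was at 36.5 RPKM in 2OHE2, 31.8 in 4OHE1 and 37.1 in 2OHE1, against 42.4 in EtOH and 40.3 in both E2 and 16Epi. Every hydroxyestrogen library was below every control, and the difference of -0.23 did not pass (interval -0.42 to -0.03; limma, adjusted p = 0.300). Bag1, another exchange factor of HSP70, was at 81.0, 84.3 and 69.3 RPKM against 91.0, 97.9 and 80.0, with a difference of -0.20 (limma, adjusted p = 0.442; -0.11 without 2OHE1) and overlap between 16Epi and the hydroxyestrogens. The HSP40 proteins Dnaja2 and Dnajb6, the HSP70 partner St13 and the HSP90-binding cyclophilin Ppid had differences of 0.06, -0.03, 0.03 and 0.11, all with overlap between the groups. Dnajb6, whose promoter holds a 3-unit element, was at 8.73 to 13.3 RPKM in hydroxyestrogens and 9.87 to 11.4 in controls. Across the 8 constitutive genes the median difference was 0.05, with 5 positive, beside -0.02 and 45.7% positive over all tested genes. Their range ran from -0.23 for Hspa4 to 0.26 for Hspa8. None of the 8 passed with limma, and 2 had an unadjusted p under 0.05, beside 13.5% of all tested genes. Limma-voom on read counts passed 1, Hspa8, where it passed 3.61% of all genes.

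The 7 measured TRiC subunits (Tcp1, Cct2, Cct3, Cct4, Cct5, Cct7 and Cct8) were all lower on average in hydroxyestrogens, by small amounts. Their differences ran from -0.16 for Tcp1 to -0.03 for Cct5, with a median of -0.09. Over all tested genes the median was -0.02, with 45.7% positive. Tcp1, the alpha subunit, was at 99.9 RPKM in 2OHE2, 96.1 in 4OHE1 and 89.1 in 2OHE1, against 104 in EtOH, 103 in E2 and 111 in 16Epi. Cct2 was at 140, 135 and 137 RPKM against 148, 146 and 152, and Cct3 at 148.3, 138 and 132 against 158.5, 156 and 148.7. In these 3 subunits the groups did not overlap, though the highest hydroxyestrogen value of Cct3 lay just under the lowest control. Of all tested genes, 10.8% were likewise lower in every hydroxyestrogen library. None of the 7 passed with limma (lowest adjusted p = 0.370), none had an unadjusted p under 0.05, and none passed with limma-voom or in the authors' deposited table. Without 2OHE1, 6 of the 7 differences were negative. Cct6a, the further subunit on a separate list of co-chaperones, differed by -0.10 (limma, adjusted p = 0.553). Tcp1, Cct7 and Cct8 overlap genes on the opposite strand (Acat3, Pradc1 and Usp16), and reads of such pairs cannot be told apart, because no source used here says whether reads were counted by strand; the same holds for Dnaja1 with Smu1.

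The 2 relatives in the endoplasmic reticulum, Hspa13 and the HSP40 protein gene Dnajb9, differed by -0.04 and -0.23 and overlapped between groups (limma, adjusted p = 0.937 and 0.662).

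**Figure D2:**
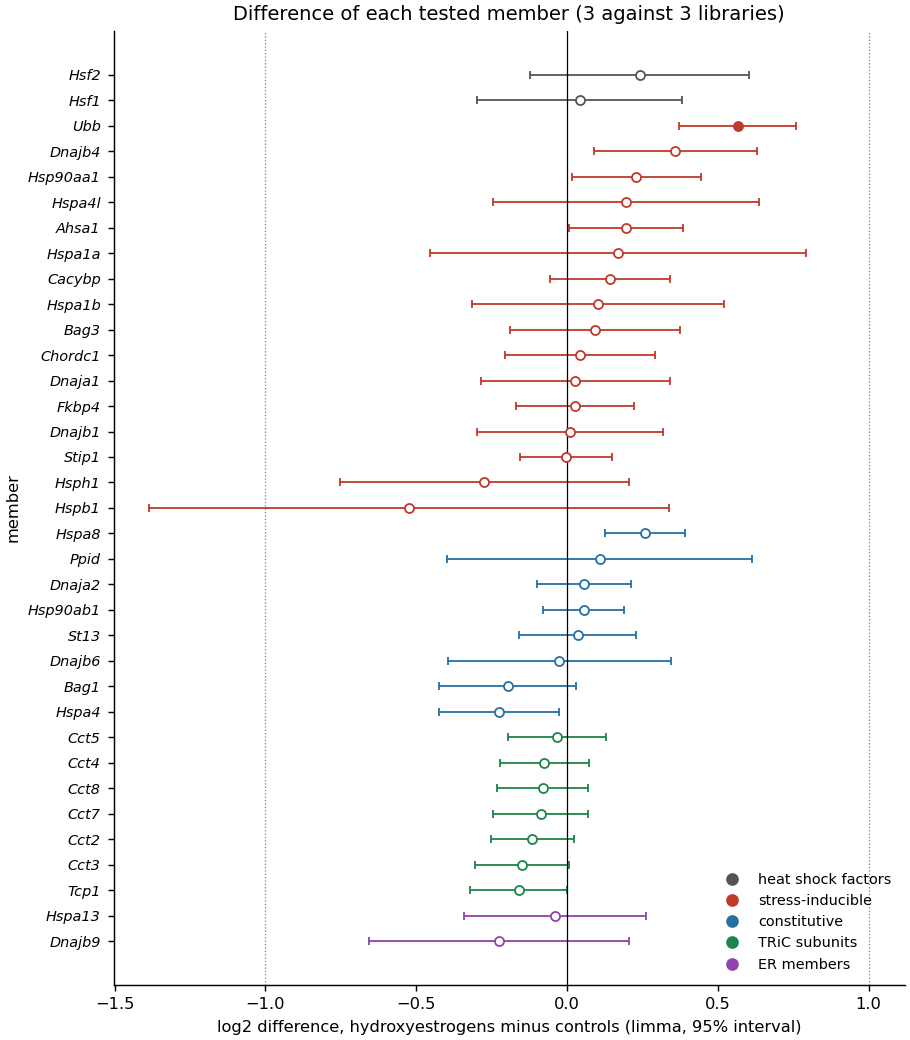
Log2 difference, hydroxyestrogens minus controls, with its 95% limma interval (x axis), for the 35 tested members (y axis), coloured by class, with dotted lines at 2-fold and a filled point for a member that passed. Ubb is the 1 filled point, the 7 TRiC subunits lie left of 0, and the interval of Hspb1 is the widest.

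The intervals limit how large a mean difference between the groups these data allow, not that of a single compound. For 34 of the 35 tested members the whole 95% interval lay within 2-fold in either direction, and for 26 within 1.5-fold, against 76.0% and 49.2% of all tested genes. Hspb1 was the exception at 2-fold, on its lower side, and the upper limit was under 2-fold for all 35. The width of an interval depends on expression level through the variance trend, and members and all genes were not matched for level. Setting the classes side by side, the median difference was 0.10 for inducible genes and -0.08 for the 15 constitutive genes with TRiC, and the sign of the latter came from TRiC, since the 8 without TRiC had a median of 0.05. These medians describe lists chosen with results of these data known, and their difference was not tested.

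**Figure D3:**
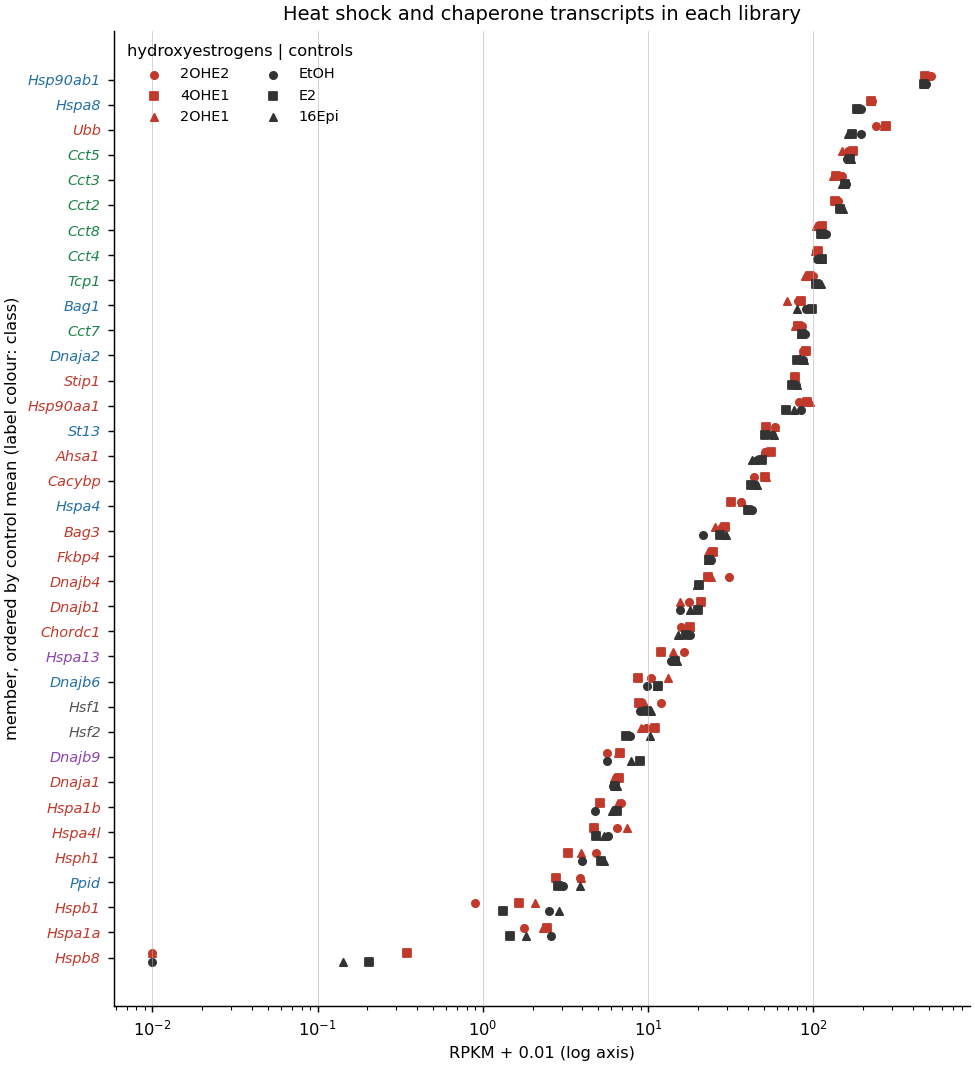
Level of each of the 36 members (y axis, ordered by control mean, label colour by class) in each library (x axis, RPKM + 0.01 on a log axis), hydroxyestrogens in red and controls in grey. The members span from Hspb8, at 0 in 3 libraries, to Hsp90ab1, whose lowest library is at 465 RPKM, and the 6 libraries of a gene mostly lie close together.

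Each hydroxyestrogen was then compared with the 3 controls, in a fit that takes the spread of a single library to be that of the controls. The hydroxyestrogen libraries scattered more, at 4.14 to 4.92 against 2.40 to 2.60 in controls, so the p-values of this fit can be too small. The inducible class had a median of 0.02 in 2OHE2, 0.14 in 4OHE1 and 0.12 in 2OHE1. The constitutive genes with TRiC had a median of -0.06, -0.09 and -0.12 in these compounds. Without TRiC, the 8 constitutive genes had a median of 0.07, -0.09 and 0.07. The negative signs in 2OHE2 and 2OHE1 thus came from TRiC. Over all tested genes the median was 0.04, -0.06 and -0.02 in the same order. The inducible median of 2OHE2 was thus below that of all genes and below that of the 8 constitutive genes. The constitutive median of 4OHE1, with or without TRiC, was near that of all genes. All these comparisons share the 3 control libraries. With 4OHE1, 1 of 35 members passed, Ubb, at 0.65 (limma, adjusted p = 0.0319), while 3.69% of all tested genes did; 4 of 35 had an unadjusted p under 0.05, beside 23.9% of all genes. That call was lost without the E2 or the 16Epi library, with the adjusted p up to 0.113. With 2OHE1, no member passed in limma, where 0.542% of all genes did, 9 of 35 had an unadjusted p under 0.05 (14.2% of all genes), and limma-voom passed 1, Ubb, and 3.12% of all genes. With 2OHE2, no member passed in limma, where 0.609% of all genes did, 4 of 35 had an unadjusted p under 0.05 (13.8% of all genes), and limma-voom passed 3, Ubb, Hspa8 and Dnajb4, and 3.86% of all genes. With 4OHE1, limma-voom passed 3 of 35, Ubb, Hspa8 and Hspa4, and 13.7% of all genes, so the members' count there was no higher than the background.

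Ubb had a positive difference in each compound, also of 0.44 in 2OHE2 (limma, adjusted p = 0.142) and 0.61 in 2OHE1 (limma, adjusted p = 0.0781). Hspa8 was 0.27, 0.25 and 0.26 above controls in 2OHE2, 4OHE1 and 2OHE1. The members with the largest differences in a compound were otherwise not shared. In 2OHE2 they were Hspb1 at -1.17 on 15 reads (limma, adjusted p = 0.348) and Dnajb4 at 0.62 (limma, adjusted p = 0.0745). In 4OHE1 they were Hsph1 at -0.55 (limma, adjusted p = 0.245) and Hsf2 at 0.39, and in 2OHE1 Hspa4l at 0.48 (limma, adjusted p = 0.339) and Bag1 at -0.37 (limma, adjusted p = 0.254). Hspa4l was at 6.44 RPKM in 2OHE2, 4.72 in 4OHE1 and 7.47 in 2OHE1, against 5.73 in EtOH, 4.84 in E2 and 5.43 in 16Epi, so 4OHE1 was the lowest library and 2OHE1 the highest.

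**Figure D4:**
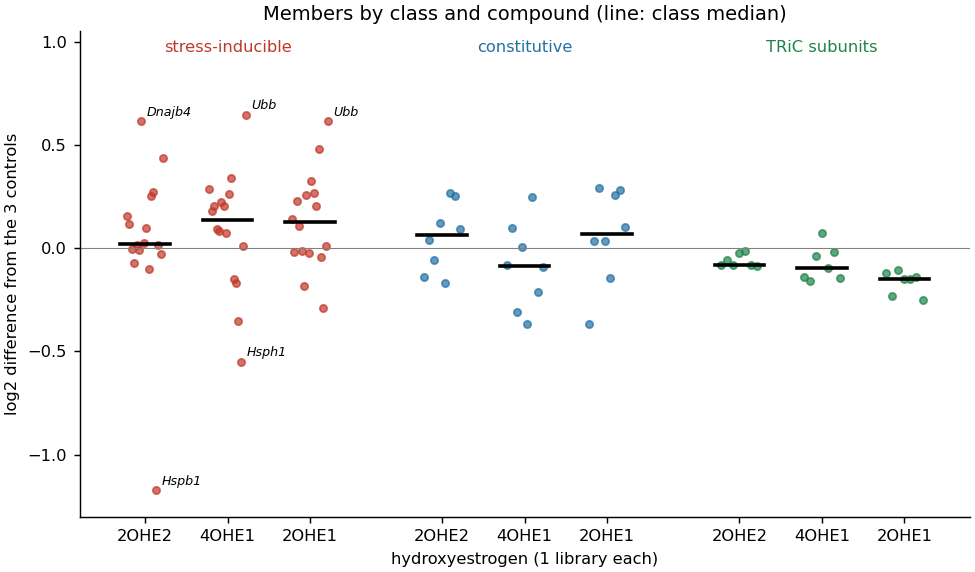
Log2 difference from the mean of the 3 controls (y axis) of the tested inducible, constitutive and TRiC genes in each hydroxyestrogen library (x axis), with a line at each class median; members beyond 0.5 in either direction are labelled. Most points lie within 0.5 of 0 in all 3 compounds, and the lowest is Hspb1 in 2OHE2 at -1.17.

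The 3 compounds were also compared with each other at the same dose and times. 2OHE2 and 2OHE1 carry the added hydroxyl at the same carbon of the A ring, on estradiol and estrone. 4OHE1 carries it at a different carbon of that ring, on estrone. In the 3 pairs no member passed in limma, with p-values adjusted over all genes in each pair or over all genes and pairs together; 0.0417%, 0.0417% and 0.0751% of all genes passed in 4OHE1 against 2OHE1, 2OHE2 against 2OHE1 and 4OHE1 against 2OHE2. At an unadjusted p under 0.05 these pairs gave 3, 1 and 2 of 35 members, beside 15.0%, 10.6% and 15.8% of all genes, and limma-voom passed no member, beside 2.24%, 0.0917% and 2.01% of all genes. Ubb differed by 0.03 between 4OHE1 and 2OHE1 (95% interval -0.28 to 0.35), by -0.18 between 2OHE2 and 2OHE1 (-0.49 to 0.14) and by 0.21 between 4OHE1 and 2OHE2 (-0.11 to 0.52). Hspa8 differed by -0.01 (-0.22 to 0.20), 0.01 (-0.20 to 0.22) and -0.02 (-0.23 to 0.19) in the same pairs. Dnajb4 was higher in 2OHE2 than in 2OHE1 by 0.36 (0.05 to 0.67; limma, adjusted p = 0.439), and lower in 4OHE1 than in 2OHE2 by a log2 difference of -0.41 (-0.72 to -0.10; limma, adjusted p = 0.243). A p that misses the threshold does not show that the compounds act alike. Among the 3 pairs of controls (E2 against EtOH, 16Epi against EtOH and 16Epi against E2) no member passed in limma or limma-voom, where 0.00834%, 0.0167% and 0.0167% of all genes passed in limma and 0.00% in limma-voom. None of the 35 had an unadjusted p under 0.05 in these pairs, beside 1.35%, 1.51% and 1.37% of all genes. These pairs set 1 library against 1 and take their spread from the 3 hydroxyestrogen libraries, which scatter more: the SE of Hspa8 was 0.13 in the control pairs and 0.09 in the hydroxyestrogen pairs. Few small p-values among controls are therefore no sign that the controls were alike.

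Genes that share these functions but are not members were placed beside them from fixed lists. Only the comparison of hydroxyestrogens with controls is given for these lists, not single compounds. In it 1.88% of all tested genes passed in limma and 3.61% in limma-voom. An unadjusted p under 0.05 was reached by 13.5% of all tested genes, 45.7% were positive, and the median was -0.02. None of 18 other heat shock targets passed in limma or limma-voom, 3 had an unadjusted p under 0.05, and the median difference was 0.05. The smallest p-value among them belonged to Dedd2, a protein with a death effector domain, with a difference of 0.79 (limma, adjusted p = 0.173). Dedd2 was at 4.423, 4.003 and 4.843 RPKM in 2OHE2, 4OHE1 and 2OHE1 and at 2.653, 3.188 and 1.846 in EtOH, E2 and 16Epi, with no overlap.

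In the same comparison between groups, none of 25 other cytosolic co-chaperones passed in limma or limma-voom. An unadjusted p under 0.05 was found in 4 of the 25, beside 13.5% of all tested genes, and the median was -0.01. The smallest p-values were those of the prefoldin subunits Pfdn4 at -0.40 and Vbp1 at -0.29, which hand unfolded actin and tubulin to TRiC (limma, adjusted p = 0.176 and 0.189). Vbp1 was at 20.0, 20.9 and 20.0 RPKM against 25.8, 25.2 and 23.5, below every control in each hydroxyestrogen library. The other prefoldin subunits did not share a direction: Pfdn5 differed by 0.23, Pfdn1 by 0.04, Pfdn2 by -0.12 and Pfdn6 by -0.13, and none passed (limma, adjusted p from 0.354 to 0.921). None of 15 chaperones of the endoplasmic reticulum passed between groups in limma or limma-voom, and 2 of the 15 had an unadjusted p under 0.05. Their median was 0.08 with 13 positive, beside -0.02 and 45.7% positive over all tested genes. Creld2 and Calr had the smallest p-values there, with differences of 0.29 and 0.17 (limma, adjusted p = 0.272 and 0.298). None of 10 mitochondrial chaperones and proteases passed between groups in limma or limma-voom, and 1 of the 10 had an unadjusted p under 0.05. Hspa9 and Clpp led with -0.16 and 0.24 (limma, adjusted p = 0.317 and 0.484).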

How the data were processed

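Messenger RNA of 6 libraries was sequenced on a HiSeq2500, per the labels' protocols. STAR, HOMER, DESeq2 and edgeR (versions not given) and build mm9 are named in the submitters' processing notes. The RPKM values were made by the authors with HOMER over exons, 1 entry per gene, as the file headers record. The authors' deposited table holds log2 expression values, log2 fold changes (positive where controls are higher, reversed here) and p-values with adjusted p-values.

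Groups were taken from the sample titles. The labels' treatment field swaps them, calling the ethanol library a hydroxyestrogen, so it was left aside. The members and lists were chosen with earlier results of these data known.

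RPKM times exon length and total tags gave whole reads (100% of 1873 to 2607 low values per library within 0.1 read). Genes reaching 10 reads in 3 or more libraries were tested with limma 3.58.1 in R 4.3.3 (two-sided, variance trend, log2(RPKM + 0.1), Benjamini-Hochberg, threshold 0.05). The residual degrees of freedom were 4 between groups and 2 per compound, with medians of 9.45 and 6.64 in all. For 1 value alone, the smallest p of an exact permutation test would be 0.1. The code was tested on simulated data. Windows of 50 bases came from GENCODE vM21 transcripts.

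Members were given with full values where they passed a test, were 1 of 12 listed genes, or were among the 3 largest differences of a compound. The others are given by counts, ranges and the extremes of their class. Ahsa1, Hspa4, Tcp1, Cct2, Cct3, Chordc1 and the other prefoldin subunits were chosen after their values were seen. Of each further list, the 2 genes with the smallest p are named where none passed, except for a result that is not reported here. Alternatives covered pseudocounts, filters, scaling, the variance trend, limma-voom, the authors' log2 values, a replicate block and leaving out each library.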

Additional observations from a re-analysis of the deposited data

How the results depend on the processing

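Of the members, the count that passed between hydroxyestrogens and controls was 1, and became 0 with no filter on low values or no variance trend and 2 with a filter of 100 reads, limma-voom or the authors' log2 values, where Hspa8 joined Ubb. Leaving out 1 library at a time gave 0 to 1, where 0.534% to 1.59% of all genes passed. For 2OHE1 the count of 0 became 1 with 100 reads or limma-voom and 3 with the authors' log2 values, and 0 to 1 leaving out a control. For 4OHE1 the count of 1 became 0 with no filter or no variance trend, 3 with limma-voom and 5 with the authors' log2 values, and 0 to 1 leaving out a control. For 2OHE2 the count of 0 became 1 with no filter or 100 reads, 3 with limma-voom and 2 with the authors' log2 values, and 0 to 1 leaving out a control. The authors' log2 values passed 4.16%, 4.71%, 14.6% and 4.99% of all genes in these comparisons, in the order given, and limma-voom 3.61%, 3.12%, 13.7% and 3.86%. The cause was not tested. The counts between compounds stayed at 0. The median of the constitutive genes, -0.08, was -0.043 with the authors' log2 values and 0.045 without TRiC. That of the inducible genes, 0.098, was 0.039 with the authors' log2 values and ran from 0.067 to 0.14 when 1 library was left out.

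Of the 35 tested members, 11 changed sign when 1 library was left out. Among the 15 given in full these were 5, over ranges of -0.090 to 0.13 for Hsf1, -0.015 to 0.38 for Hspa1a, -0.026 to 0.23 for Hspa1b, -0.096 to 0.11 for Dnajb1 and -0.038 to 0.19 for Bag3. The other 6 were Chordc1, Stip1, Dnajb6, St13, Cct5 and Hspa13. The deviations of libraries with the same replicate number had correlations of -0.04, 0.07 and 0.04, against -0.08 to 0.04 for libraries with different numbers. Each library was a different compound, so these values cannot show whether the numbers pair the libraries. A replicate block left the count at 1 (Ubb, limma, adjusted p = 0.0280). Over the genes given in full, 234 results stayed on the same side of the threshold with the same sign, 10 became stronger, 8 weaker and 7 turned. Each compound has 1 library, and Hspb1 and Hspb8 are limited by few reads.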
